A study of Mus musculus with 4 samples.

Results

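The Lig4, Prkdc, Xrcc4, Rad50, Rad52 and Msh6 genes were taken from a NanoString panel of cancer pathway genes as the probes of those names, so 6 of the 750 gene probes were used, and all 6 were present. They cover 3 routes of DNA repair. Lig4, Prkdc and Xrcc4 act in non-homologous end joining, Rad50 and Rad52 in break processing and recombination, and Msh6 in mismatch repair. The RNA came from CD45- live cells sorted out of subcutaneous B16.OVA tumors, a transplanted C57BL/6 mouse melanoma line that carries ovalbumin. Every host mouse, on a C57BL/6 background, expressed Cre from the Foxp3 locus (FoxP3YFP-Cre). The WT group (n = 2) had this allele alone, and the KO group (n = 2) carried floxed Prdm1, the Blimp1 gene, in addition (Prdm1fl/flFoxP3YFP-Cre). Both groups received NP-OVA in complete adjuvant on day 0, together with the tumor cells, and in incomplete adjuvant on day 7, and tumors had reached at most 1.5 cm3. Cre is active in regulatory T cells, which are CD45+ and lie outside the sorted gate, so the profiled cells themselves were not the target of the deletion. The labels give neither the age of the mice nor a statement that each sample was a separate mouse.

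A double-strand break can be closed in several ways. In end joining the broken ends are held by the Ku proteins, which recruit the kinase DNA-PKcs (Prkdc), and are sealed by DNA ligase IV (Lig4) bound to its scaffold Xrcc4. In recombination the Mre11-Rad50-Nbn complex recognizes and trims the ends before a homologous copy is used, and Rad52 binds single strands and anneals them. Mismatch repair corrects mispaired bases behind the replication fork. Msh6 acts at its first step, the recognition of such mispairs. Dividing tumor cells meet both kinds of lesion when they copy their DNA.

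The promoters of the members whose levels are set against each other below are shown as the 250 bases before the transcription start, 5′ to 3′ on the strand of the gene, from RefSeq (GRCm38.p6). RefSeq windows were found for 4 of the 6 members, not for Prkdc and Rad50, and the first of 2 windows is shown for Lig4. Capitals mark matches, on either strand, to the GC box GGGCGG, the CCAAT box, the ETS core CCGGAAG, the TGACG core of cyclic AMP response elements, the E2F-type site TTTNNCGC and the NRF1-type site GCATGCGC.
Lig4, chr8:9977681-9977930, minus strand: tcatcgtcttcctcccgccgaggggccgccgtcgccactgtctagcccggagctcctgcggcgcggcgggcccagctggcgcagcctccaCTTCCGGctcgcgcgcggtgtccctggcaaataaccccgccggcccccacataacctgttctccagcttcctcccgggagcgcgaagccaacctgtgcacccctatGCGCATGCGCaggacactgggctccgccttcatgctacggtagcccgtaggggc
Xrcc4, chr13:90089609-90089858, minus strand: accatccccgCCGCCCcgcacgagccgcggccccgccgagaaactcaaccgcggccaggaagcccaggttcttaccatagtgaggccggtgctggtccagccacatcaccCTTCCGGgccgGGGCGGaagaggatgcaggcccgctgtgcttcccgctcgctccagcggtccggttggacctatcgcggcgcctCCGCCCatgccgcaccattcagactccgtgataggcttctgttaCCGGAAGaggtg
Rad52, chr6:119902448-119902697, plus strand: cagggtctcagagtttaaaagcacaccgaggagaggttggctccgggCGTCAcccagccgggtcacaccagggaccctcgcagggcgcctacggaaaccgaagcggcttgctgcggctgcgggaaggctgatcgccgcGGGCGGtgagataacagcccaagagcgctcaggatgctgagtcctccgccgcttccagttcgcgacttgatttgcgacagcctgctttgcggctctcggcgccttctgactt
Msh6, chr17:87974800-87975049, plus strand: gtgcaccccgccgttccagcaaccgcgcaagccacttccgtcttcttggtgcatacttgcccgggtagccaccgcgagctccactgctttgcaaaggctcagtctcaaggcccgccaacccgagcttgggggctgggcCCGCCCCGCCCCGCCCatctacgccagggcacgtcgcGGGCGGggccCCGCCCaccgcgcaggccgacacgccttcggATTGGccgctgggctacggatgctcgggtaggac

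The 4 printed windows were rich in G and C, at 64.0% to 70.8%, above a median of 52.4% over all RefSeq windows of this length. The Lig4 window held 1 ETS core and 2 overlapping NRF1-type matches, one on each strand, and the Xrcc4 window held 3 GC boxes and 2 ETS cores. The Rad52 window held 1 GC box and 1 TGACG core, and the Msh6 window 5 GC boxes, of which the first 3 overlap by a base, and 1 CCAAT box. No window of these genes held the E2F-type letters. Over all 32851 windows, 32.7% held a GC box, 33.8% a CCAAT box, 6.91% an ETS core, 17.8% a TGACG core, 4.28% an E2F-type and 2.26% an NRF1-type site. The second Lig4 window, not printed, held 2 GC boxes and 1 ETS core. These matches describe letters and are not evidence of binding.

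The panel counts barcodes on unamplified RNA with 1 probe per gene. The 750 gene probes of a sample summed to between 626056 and 692284 counts. Levels below are scaled counts, for which each sample's counts were divided by its own housekeeping factor (0.935 to 1.06, from 20 genes). Of the gene probes, 446 lay above background in at least 2 samples and were tested, among them all 6 members. KO 2 stood apart over these genes, with log2 correlations of 0.975 to 0.981 to the other samples, against 0.989 to 0.993 among WT 1, WT 2 and KO 1. Values without it are therefore given below. Pax3 and Kit, the 2 of 5 defining melanocyte genes on the panel, were above background in each sample. The 4 fibroblast and pericyte markers Col1a1, Col1a2, Col3a1 and Pdgfrb were above it in 3 or 4 samples, and the 7 such markers on the panel had summed levels of 862 and 1584 (WT) against 1264 and 1109 (KO) scaled counts, most of them from Fn1 (610.2 and 1139 against 985 and 962). Of the 6 that were tested, 5 were lower by mean in the KO group (median of the 6, -0.59 on the log2 scale). Col3a1, Col1a1 and Col1a2 had the 3 lowest values of all tested genes in KO 2 against the WT mean, at -2.63, -2.11 and -1.37 on the log2 scale, where KO 1 was at -0.24, 0.03 and -0.38. Their KO 2 counts of 17, 13 and 17 lay below the background limit of that sample, 19.9. In WT 1 and WT 2 they were at 68.0 and 162, 28.3 and 112, and 34.0 and 55.1 scaled counts. The endothelial markers Kdr and Flt1 and the leukocyte marker Csf1r were below background throughout, at 1 to 11 counts. The 17 leukocyte-associated genes, of which 3 passed the background filter (each lower by mean in KO samples), had summed levels of 320.2 and 356 (WT) against 281 and 262 (KO) scaled counts. Their part in the results below was not tested, and a change in the mix of cells cannot be told apart from a change of RNA per cell.

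The members differed widely in level. In the WT samples Msh6 gave the most scaled counts, at 900.4 ± 52.3, then Rad50 at 557 ± 24, Xrcc4 at 265 ± 14.8, Lig4 at 232 ± 5.22, Prkdc at 163 ± 6.41 and Rad52 at 114 ± 3.57 (mean ± SD, n = 2). Each step in this order was larger than the SDs on either side of it. In the KO samples the order was the same for the first 3, but Lig4 at 169 ± 6.05 and Prkdc at 168 ± 11.1 could not be separated. Counts of different genes also reflect how well each probe captures its target. Over the tested genes the mean levels lay between the 22.9 percentile (Rad52) and the 75.1 percentile (Msh6). The lowest count of any member, 84 for Rad52 in KO 2, was 4.22 times the background limit of that sample.

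Lig4, the ligase that closes the break, was the member that differed most between the groups. The WT samples gave 235 and 228 scaled counts, the KO samples 173 and 165. The KO samples were close to each other and both lay below both WT samples, 1.37-fold lower by mean. On the log2 scale KO over WT came to -0.46 ± 0.14 (SE), 95% interval -0.80 to -0.11 (edgeR's quasi-likelihood test, unadjusted p = 0.0170, adjusted p = 0.538), so Lig4 did not pass the threshold over all genes tested. Exact 95% Poisson intervals, which cover counting error only, ran from 199 to 266 scaled counts over the WT samples and from 141 to 202 over the KO samples, so WT 2 and KO 1 met at their edges. Xrcc4, the partner that stabilizes Lig4, gave 276 and 255 scaled counts (WT) against 288 and 226 (KO). KO 1 held the most Xrcc4 and KO 2 the least, so the groups overlapped. Its log2 fold change was -0.05 ± 0.16 (SE), with an interval from -0.44 to 0.34. Prkdc, the kinase that acts at the start of the route, gave 167 and 158 (WT) against 160.4 and 176 (KO). These groups overlapped too, with a log2 fold change of 0.05 ± 0.16 (SE) and an interval from -0.33 to 0.43.

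**Figure D1:**
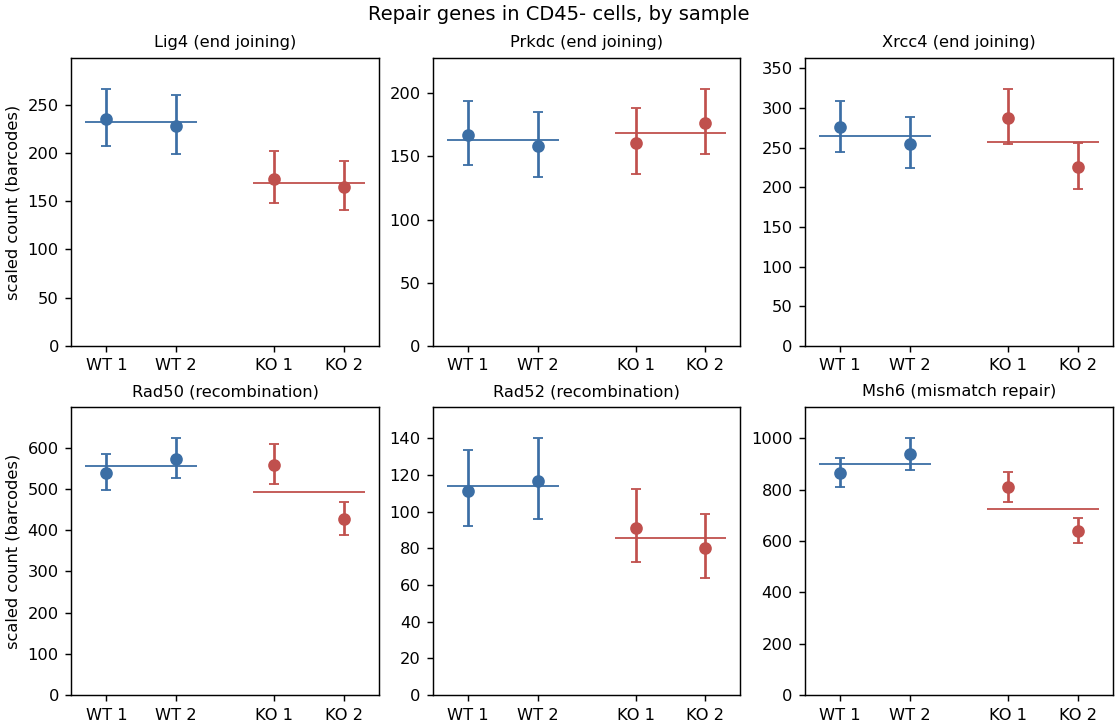
Scaled counts (y axis, from 0, barcodes) of the 6 members in each WT (blue) and KO (red) sample. Points are samples, bars are exact 95% Poisson intervals of the count and horizontal lines are group means. Lig4, Rad52 and Msh6 have both KO points below both WT points, and for Rad50 KO 2 alone is low, at 428.

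Rad52, the annealing factor, had the next lowest fold change. The WT samples gave 111 and 117 scaled counts, the KO samples 90.9 and 79.9, 1.33-fold lower by mean, with both KO samples below both WT samples. As the lowest member it had the widest interval, with a log2 fold change of -0.42 ± 0.22 (SE) and limits of -0.95 and 0.11 (edgeR, adjusted p = 0.582 from a raw value of 0.104). Counts of 84 to 118 carry counting intervals that overlap between WT 1 at 92.3 to 133 and KO 1 at 72.6 to 112. Rad50, the ATPase of the end-recognition complex, gave 540.3 and 574 (WT) against 559 and 428 (KO). KO 1 lay between the WT samples, and the counting interval of KO 2, 389.6 to 469.8 scaled counts, lay below those of the other 3 samples, which began at 497. The log2 fold change of Rad50 was -0.18 ± 0.15 (SE; edgeR, adjusted p = 0.704). Leaving KO 2 out brought it to 0.01.

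Msh6, the mismatch recognition subunit, gave 863 and 937 scaled counts (WT) against 809 and 639 (KO), 1.24-fold lower by mean. Both KO samples were below both WT samples, but KO 1 was nearer to WT 1 than to KO 2. The counting interval of KO 1 (753 to 869) overlapped that of WT 1 (808 to 921), whereas that of KO 2 (591 to 689) lay below all others. The log2 fold change was -0.31 ± 0.14 (SE), and its 95% interval reached from -0.67 to 0.04 (edgeR, adjusted p = 0.569 from a raw value of 0.0716). It was -0.15 without KO 2 and -0.50 without KO 1, fits that leave 1 sample in the KO group.

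By count, 0 of the 6 members passed the adjusted threshold of 0.05, nor did any of the 446 tested genes (0%), and the adjusted p was 0.415 or more throughout (edgeR). DESeq2 called 0 members and 3 other genes (0.673% of all tested genes), and limma-voom called 0 members and 0 of all 446 tested genes. Before adjustment 33 genes had p under 0.05, 20 of them lower in KO samples (4.48% of all tested genes), and Lig4 was the 1 member among those 20. It was also the 1 such member with DESeq2 (2.69% of all tested genes) and with limma-voom (5.38%). There was none without WT 1 (4.93%) or WT 2 (0.897%), where the unadjusted p of Lig4 was 0.106 and 0.0765 (edgeR). Without KO 1 there were 3 such members, Lig4, Rad50 and Msh6, but the share of all tested genes was larger too, at 15.9%, and 4.48% passed the adjusted threshold, with 0 members among them. The log2 fold change was below 0 for 5 members, beside 66.8% of all tested genes, whose median was -0.08. Both KO samples lay below both WT samples for 3 members (Lig4, Rad52 and Msh6), beside 31.4% of all tested genes, and for 0 members both lay above, beside 11.2%. With so few members these shares describe the genes and do not set them apart from the panel.

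Other genes of the same routes on the panel had smaller fold changes than Lig4 and Rad52. The lists were chosen with earlier results of these data known. For end joining 1 further gene of the list was tested, Mad2l2, a subunit of break protection and translesion complexes, at 221 and 242 against 265 and 245 scaled counts (WT against KO, log2 fold change 0.14). For break sensing and recombination there were 9 others, of which 3 were higher and 6 lower by mean in the KO group. Their median was -0.13, between -0.19 and 0.18, and 0 were at an unadjusted p under 0.05. With Rad50 and Rad52 the median of this list was -0.15, and it was -0.29 without KO 1 and -0.03 without KO 2. The others included the kinase gene Atm at 363 and 378 against 364 and 304, and Brca1, which promotes end resection, at 327 and 362 against 318 and 311. For mismatch repair 8 others comprised 3 higher and 5 lower genes. Their median was -0.02, between -0.25 and 0.21, and 0 were at an unadjusted p under 0.05. Of these, the clamp loader gene Rfc4 was at 397 and 375 against 482 and 411 (log2 fold change 0.21).

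**Figure D2:**
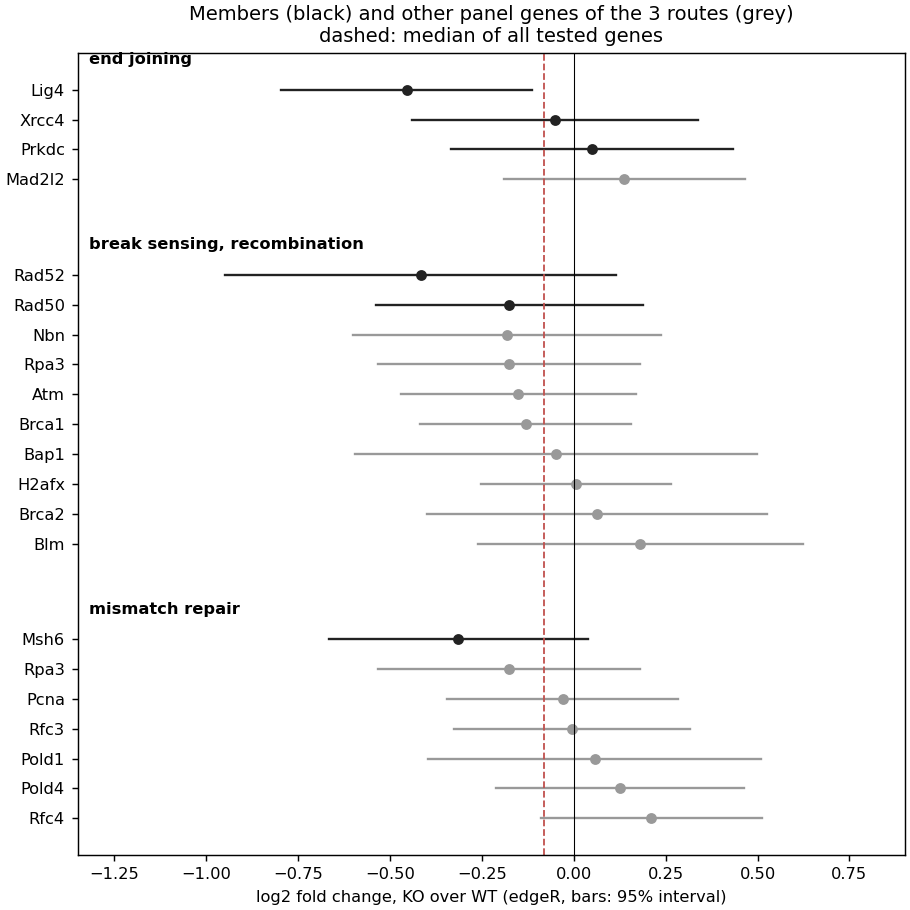
Log2 fold change, KO over WT (x axis, points), with its 95% interval (bars) for the members (black) and other tested genes of each route list that are reported (grey, Rpa3 in 2 lists). The interval of Lig4, from -0.80 to -0.11, is the only one shown that lies wholly below 0, and the dashed line at -0.08 is the median of all 446 genes.

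Set against the WT mean one KO sample at a time, the members did not behave alike, which with 2 KO samples is a description only. Lig4 and Rad52 were low in both KO samples, Lig4 by -0.42 and -0.49 and Rad52 by -0.32 and -0.51 on the log2 scale in KO 1 and KO 2. Rad50 and Xrcc4 were below the WT mean in KO 2 alone, at 0.01 and -0.38 for Rad50 and at 0.12 and -0.23 for Xrcc4. Msh6 lay between, at -0.15 and -0.49, and Prkdc was near the WT mean in both, at -0.02 and 0.11. For Xrcc4 the counting interval of KO 2, 198 to 256 scaled counts, overlapped those of WT 1 (245 to 309) and WT 2 (224 to 289). The medians over all tested genes were -0.06 in KO 1 and -0.11 in KO 2, with SDs over genes of 0.24 and 0.46. Genes of DNA replication and S phase, listed because repair genes are often expressed with them, were low in KO 2 as well. Of 14 tested, 13 lay below the WT mean in KO 2, with a median of -0.21, and 5 in KO 1, with a median of 0.06. Of all tested genes, 64.6% lay below the WT mean in KO 2 and 64.3% in KO 1. Cdc7, a kinase that fires replication origins, was at 93.5 and 104 against 86.6 and 59.0 scaled counts, and Pole2, a polymerase epsilon subunit gene, was at 470.4 and 454 against 451 and 326. The part of these genes in the values of Rad50, Xrcc4 and Msh6 was not tested.

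**Figure D3:**
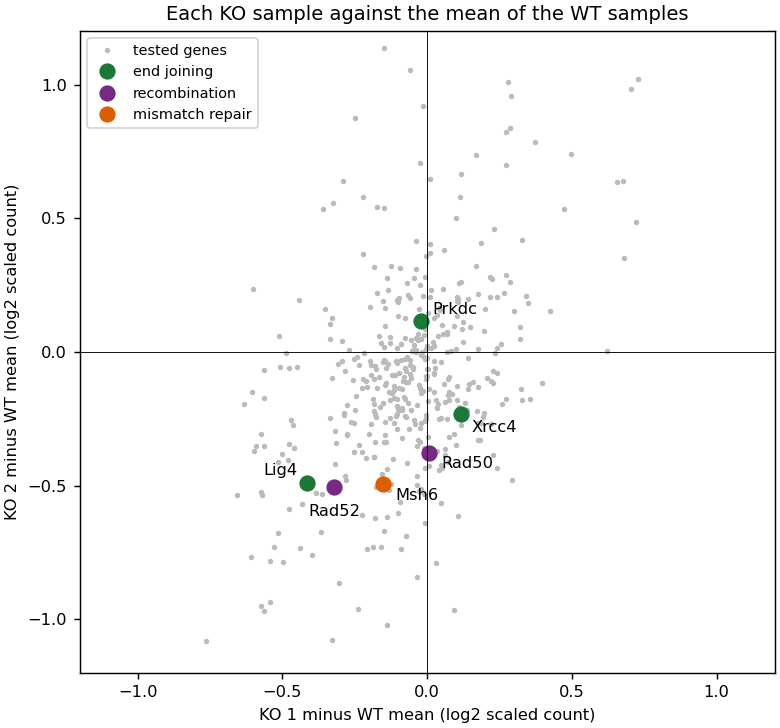
Difference of KO 1 (x axis) and KO 2 (y axis) from the mean of the WT samples, in log2 scaled counts, for the tested genes (grey) and the members (colored by route). Lig4 and Rad52 lie low on both axes, Rad50 and Xrcc4 are below 0 only on the y axis, and 11 genes beyond 1.2 on either axis are not shown.

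The ratio of 2 counts within a sample does not depend on the scaling, so partners of a route were compared in this way in 6 pairs, of which 4 are given. There were 0.853 and 0.894 Lig4 counts per Xrcc4 count (WT) against 0.602 and 0.730 (KO). Both KO ratios were below both WT ratios, a difference of -0.40 on the log2 scale. The counting interval of KO 1 (0.492 to 0.735) overlapped that of WT 1 (0.717 to 1.01) at its edge. That of KO 2 (0.597 to 0.892) overlapped those of both WT samples and held the WT 1 ratio. Relative to Prkdc, Lig4 was at 1.41 and 1.44 (WT) against 1.08 and 0.935 (KO), a log2 difference of -0.50. The counting interval of KO 1 (0.860 to 1.36) overlapped those of WT 1 and WT 2, which began at 1.16 and 1.17. That of KO 2 (0.756 to 1.16) met that of WT 1 at its edge. Xrcc4 relative to Prkdc overlapped between the groups, at 1.65 and 1.61 against 1.79 and 1.28. Against either end joining gene, both KO ratios of Lig4 were below both WT ratios. The same Lig4 counts enter both ratios and the levels above, so these values are not independent of each other.

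For Rad50 the ratio to Nbn, a subunit of the same complex, did not separate the groups. It was at 1.19 and 1.33 (WT) against 1.23 and 1.32 (KO), a log2 difference of 0.01, although Rad50 and Nbn were each lowest in KO 2. By an exact two-sided permutation test the pairs Lig4 over Xrcc4 and Lig4 over Prkdc each gave p = 0.333, the smallest p that 2 against 2 samples allow, and an adjusted p of 0.667 over the 6 pairs, so this test cannot reach 0.05 with these samples.

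**Figure D4:**
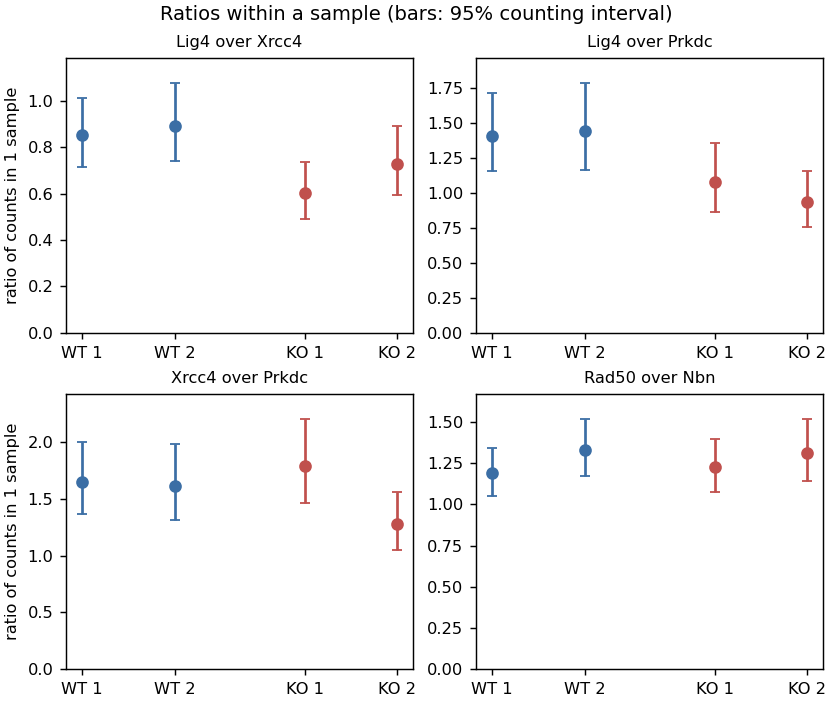
Ratio of the counts of 2 genes in the same sample (y axis, from 0) for 4 pairs in WT (blue) and KO (red) samples, with exact 95% counting intervals. The ratios of Lig4 to Xrcc4 and to Prkdc are lower in both KO samples, and those of Xrcc4 to Prkdc and Rad50 to Nbn overlap.

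The genes most like the members over the 4 samples were found by the root mean square difference of log2 scaled counts, each centred on its own mean, among tested genes with a mean of at least 100 scaled counts. Nearest to Lig4 was Nr4a3, an immediate-early nuclear receptor, at 1161 and 1119 against 845 and 768 scaled counts (0.03), followed by Tlr4 and Notch2. Nearest to Rad52 was the chromatin regulator gene Asxl1 at 481 and 507 against 406 and 354 (0.02), followed by Tlr4 and Rras2, so that Tlr4 was near both. Rad50 was nearest to the checkpoint kinase gene Chek1, at 503 and 542 against 545 and 406 (0.02), and Mtor was also among the 3 nearest. Msh6 was nearest to Tfdp1, a dimer partner of E2F factors, at 1713 and 1826 against 1606 and 1305 (0.02). For Xrcc4 the nearest was Itga6 (0.02). With 4 samples this likeness is a description only.

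Under other scalings the members shifted together with the median of all tested genes, which was 0.00 with TMM and 0.05 with positive controls. With both KO samples required to lie below both WT samples, Lig4, Rad52 and Msh6 met this with TMM (17.9% of all tested genes), with DESeq2 size factors (17.7%) and with the total count (35.9%). With positive controls Lig4 and Rad52 met it (7.62% of all tested genes), and Prkdc lay above both WT samples in both KO samples (23.3%). The log2 fold change of Lig4 was -0.37 with TMM and -0.32 with positive controls, and that of Rad52 was -0.34 and -0.28. The sign of Xrcc4 turned, to 0.03 with TMM and 0.08 with positive controls. Leaving out 1 sample at a time, Lig4 lay between -0.49 and -0.42 and Rad52 between -0.51 and -0.33.

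**Figure D5:**
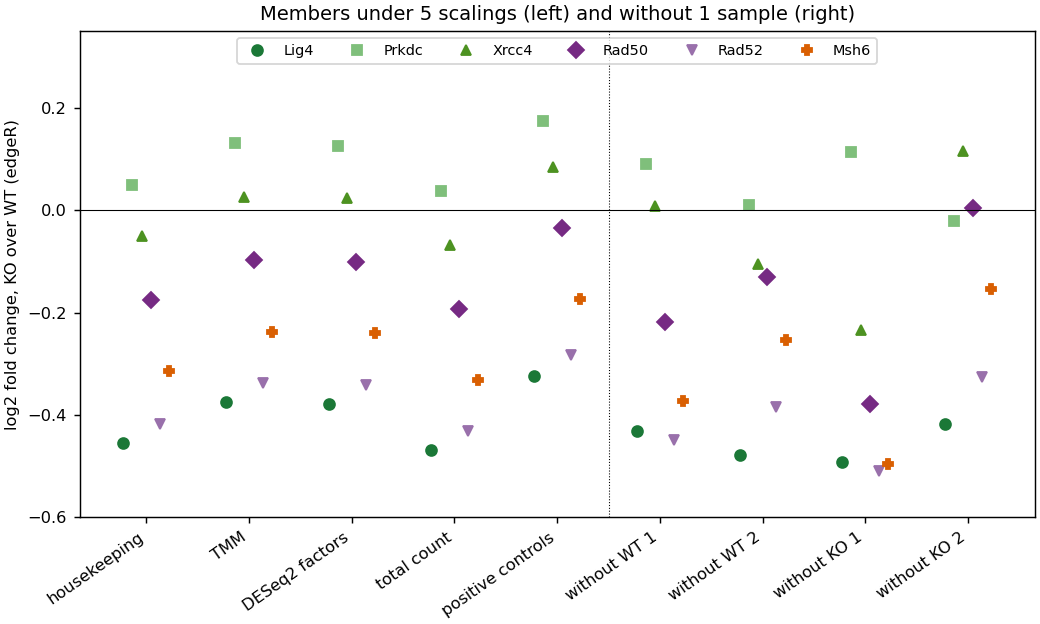
Log2 fold change, KO over WT (y axis, edgeR), of the 6 members under 5 scalings (left of the dotted line) and without 1 sample (right). Lig4 and Rad52 stay at or below -0.28 in every setting shown, whereas Xrcc4 and, without KO 2, Rad50 and Prkdc cross 0.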

How the data were processed

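Total RNA of sorted CD45- tumor cells (100 ng per sample) was hybridized to the nCounter Mouse PanCancer Pathways panel. The authors deposited raw barcode counts of 750 gene, 20 housekeeping, 8 negative control and 6 positive control probes for 4 samples. They also deposited a scaled signal, which was used as an alternative only; it was made by 1 factor per sample, its gene values have a floor, and nSolver 4.0 is the software their methods name. Groups were taken from the genotype labels. All 6 probe accessions were found under the same symbol in RefSeq.

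Each sample's factor came from the geometric mean of its housekeeping probes, all 20 of which averaged 100 counts or more. A gene was tested if its count exceeded the negative control mean by 2 SD in at least 2 samples. The test was edgeR 4.0.16 (R 4.3.3, quasi-likelihood fit and test with a genotype term alone), with Benjamini-Hochberg adjustment over 446 genes and a threshold of 0.05. It was tested on simulated data. With no label naming separate mice, p-values measure the spread between these samples. Counting intervals are exact 95% intervals (Poisson for counts, Clopper-Pearson for ratios). Text names the members, up to 3 further genes of lowest p per list, the pair partners and the nearest genes, except a few genes that are not reported here; Atm, Brca1 and the marker genes were named beside these after their values were seen. Members and lists were chosen with earlier results of these data known. Alternatives were 4 scalings, DESeq2 1.42.0, limma-voom (limma 3.58.1), other filters, background subtraction, a replicate block, the deposited signal (log2 with a pseudocount of 1) and an unequal-variance test.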

Additional observations from a re-analysis of the deposited data

How the results depend on the processing

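The count of members past the adjusted threshold was 0 under all 16 alternatives. Of all 446 tested genes, 1 passed it with a replicate block and 3 with DESeq2. Fits without 1 sample leave 1 sample in a group, whose spread they cannot measure. Members at an unadjusted p under 0.05 on the lower side numbered 1 (Lig4) in the reported fit. There were 2 with the total count (Lig4 and Msh6), 2 with the deposited signal (Lig4 and Rad52) and 0 with positive controls. Of the 446 tested genes, 20 were called so in the reported fit and 31, 24 and 3 under these settings. Without 1 sample, members with each remaining KO sample below each remaining WT sample numbered 3 to 5, beside 192 to 236 of all tested genes. With fewer samples to compare, this condition is looser than the one with all samples. Lig4, Rad52 and Msh6 kept their direction in each. With all samples they lay at -0.47 to -0.32, -0.44 to -0.28 and -0.33 to -0.17 on the log2 scale. The adjusted p of Lig4 ranged there from 0.405 (edgeR with a replicate block) to 0.891 (unequal-variance test). Without 1 sample Msh6 lay between -0.50 and -0.15, Xrcc4 between -0.24 and 0.12, Prkdc between -0.021 and 0.11, and Rad50 between -0.38 and 0.0052. Xrcc4 turned to 0.027 with TMM, 0.023 with DESeq2 size factors and 0.084 with positive controls. The median of all tested genes was -0.08 with housekeeping genes, 0.00 with TMM and 0.05 with positive controls, and medians of gene lists turned with it: end joining (-0.001) to 0.079, 0.075 and 0.13 with TMM, DESeq2 and positive controls, mismatch repair (-0.03) to 0.047, 0.044 and 0.11, and replication (-0.05) to 0.034, 0.030 and 0.089. The recombination median (-0.15) was -0.014 with positive controls and between -0.29 and -0.026 without 1 sample. Without 1 sample the other medians ranged from -0.078 to 0.047, -0.18 to -0.020 and -0.21 to 0.064. The log2 ratio differences ranged from -0.35 to 0.14 for Xrcc4 over Prkdc and -0.069 to 0.096 for Rad50 over Nbn. Another scaling changes only the factor of each sample, which shifts all genes nearly alike. The cause of the turns without 1 sample was not tested. The labels link same-numbered samples by their number only. The correlation of their deviations was 0.0397 over 446 genes (2 pairs), and whether they shared a step of handling was not tested. With a replicate block Lig4 was at -0.45 (edgeR, adjusted p = 0.405), Rad52 at -0.42 and Msh6 at -0.32. Depth limited Rad52 most, with 84 to 118 counts.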
